A study of Mus musculus with 36 samples.

Results

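Nec-1s, an inhibitor of the kinase activity of RIPK1, was added to a necroptosis stimulus in cultured mouse microglia, and the RNA of cells with and without the inhibitor was compared. The stimulus, T/S/Z, was TNF with a Smac mimetic and the caspase inhibitor zVAD, and its combination with Nec-1s is written T/S/Z/N. The comparison used 4 libraries labelled T/S/Z/N and 4 labelled T/S/Z, taken by their labels, of 36 libraries in the series and 24 of microglia. All 8 came from C57BL/6 mice of 2 to 4 days of age, whose brains were pooled and grown as mixed glia for 12 days before CD11b-positive cells were taken as microglia and treated for 4 h. Both groups received TNF, the Smac mimetic and zVAD, and they differed by label only in Nec-1s. The other microglial groups used here received the vehicle DMSO, Nec-1s alone, TNF plus 5z-7, which inhibits TAK1 (T/5z), or the latter together with Nec-1s (T/5z/N), with 4 libraries each. The labels do not say whether replicates came from separate cultures. The study's methods describe replicates as biological, which for cultured cells means separate litters, and tested these libraries in pairs, so the replicate number was kept as a term in the fit. The p-values measure the spread between these samples. Expression is given on the deposited scale, the log2 of FPKM (fragments scaled by exon length and library size) after adding 1.

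RIPK1 is a kinase of the TNF receptor complex. When cellular inhibitors of apoptosis are removed by a Smac mimetic and caspase-8 is blocked, RIPK1 binds RIPK3, which phosphorylates MLKL, and MLKL then breaches the plasma membrane in the form of cell death named necroptosis. RIPK1 also serves as a scaffold for signalling to NF-kB and MAP kinases, and that scaffold role does not need its kinase activity. Microglia, the resident macrophages of the brain, express this machinery and release chemokines and cytokines when they are stimulated through TNF or pattern recognition receptors.

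Genes were tested if 4 or more of the 24 microglial libraries held a log2 value of 1 or higher, which kept 10524 of 15385 genes. Of these, 110 were at that level in exactly 4 libraries, and 113 that reached it in 3 were not tested. A gene was called when limma gave a fold change over 1.5 with a Benjamini-Hochberg adjusted p under 0.05 over all genes tested. Microglial markers were high and even. The summed FPKM of all 16 listed markers, such as Csf1r, Aif1 and C1qa, was 18600 to 20300 after T/S/Z and 17400 to 21400 after T/S/Z/N. The 75th percentile was 4.11 to 4.14 and 4.14 to 4.15, alike because the deposited values were scaled to it. The summed FPKM of all genes did not overlap, at 557000 to 604000 after T/S/Z and 485000 to 526000 after T/S/Z/N. The 10 most abundant genes took 17.9% to 18.8% and 18.9% to 19.6% of the summed FPKM. Libraries of one group correlated across genes with r of 0.9936 to 0.9967 after T/S/Z and 0.9942 to 0.9964 after T/S/Z/N. Each gene's mean over all microglial treatments is equal across replicates as deposited, so part of this closeness is built in and is no check of the replicates. Estimated depth was 29.1 M in replicate 4 of T/S/Z and 23.8 M in replicate 4 of T/S/Z/N, and it is unknown for the other replicates.

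Transcripts of other cell types were low but did not all stay level. The summed FPKM of 11 astrocyte markers was 14.3 to 20.7 after T/S/Z, 4.88 to 6.19 after T/S/Z/N and 7.31 to 9.53 in DMSO. Of 6 astrocyte markers tested, 4 were called lower with Nec-1s and 0 higher, among them Gfap, which lay at 2.56, 2.40, 2.65 and 3.07 after T/S/Z and at 1.36, 1.41, 1.35 and 1.32 after T/S/Z/N. Aqp4, Gja1 and Slc1a3 fell by 1.16, 1.03 and 0.90 on the log2 scale, and 1 of the 4 was called with 5 added before the log. These are small levels beside the microglial markers, and 6 of the 12 listed astrocyte markers, Sox9 and S100b among them, were not tested. The sums of oligodendrocyte lineage markers overlapped between the groups (45.3 to 55.2 and 50.2 to 51.6), those of fibroblast and endothelial markers overlapped (9.66 to 13.3 and 7.56 to 10.8), and those of neutrophil and lymphocyte markers overlapped (6.24 to 19.4 and 9.17 to 19.1). Of 4 tested oligodendrocyte lineage markers, Cspg4 and Olig1 fell by 1.03 and 1.03 and Mbp rose by 0.62, a rise not called without replicate 1 or after median centring. Acta2 of the fibroblast and endothelial list fell by 0.86, and with 5 added before the log Olig1, Mbp and Acta2 were not called. Neuronal markers summed to 2.11 to 4.7 after T/S/Z and 0.555 to 1.85 after T/S/Z/N. The part of these transcripts in the results below was not tested. In RNA from a whole culture, fewer cells of a type and less RNA per cell cannot be told apart.

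Nec-1s lowered 707 genes and raised 563, which are 6.72% and 5.35% of the 10524 tested. The falls were the larger changes. A fall of more than 2 on the log2 scale, 4-fold, was found in 62 genes and a rise of that size in 1 gene, Bmf, and 24 genes fell by more than 3. Of the 1270 called genes, 1263 changed in the same direction in 4 of 4 pairs and 1254 had no overlap between the groups, while 53.7% of all tested genes had none. The median change over all tested genes was 0.059. The share of higher genes among the calls, 44.3%, fell to 28.9% when libraries were centred on their medians and to 21.2% when 5 was added before taking the log. With no fold-change minimum the balance turned, with 3587 genes higher and 2500 lower (58.9% higher), so that the larger number of falls holds for changes past 1.5-fold. The annotation marked 584 of the called genes as confounded, a mark read here as overlap with another gene, and their values may include reads of a neighbour. They include Ccl2, Il1a, Atf3, Rcan1, Bhlhe40, Mir155hg, Ch25h, Slc2a1, Sesn1, Arrdc3, Txnip and March1.

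**Figure D1:**
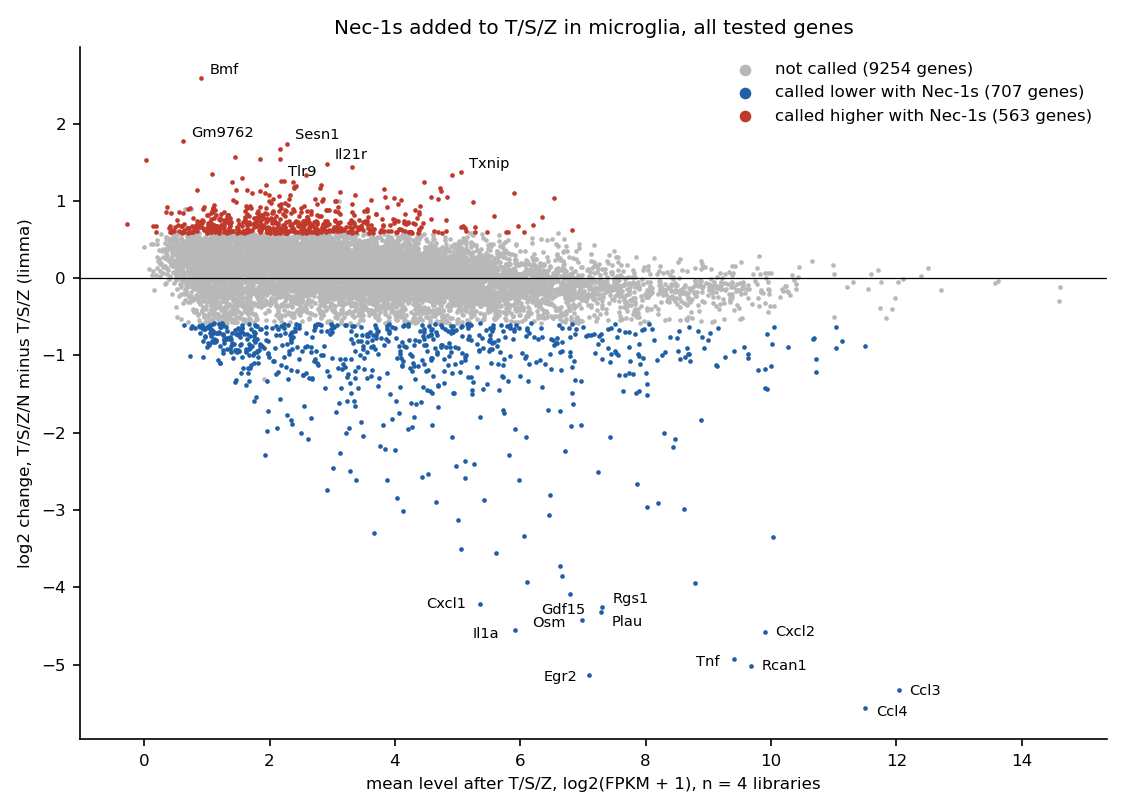
Each point is 1 of 10524 tested genes, with the mean log2(FPKM + 1) of the 4 T/S/Z libraries on the x axis and the limma log2 change with Nec-1s on the y axis. Points below 0 reach -5.56 (Ccl4) and points above 0 reach 2.58 (Bmf), and the level on the x axis is also 1 arm of the change on the y axis, so that falls are drawn towards high levels and rises towards low ones.

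The chemokine genes Ccl4 and Ccl3 had the largest falls of all tested genes. Of 11 CC chemokines tested, 7 fell, 0 rose and 4 did not pass, with a median change of -1.42. Ccl4 (GRCm38 chr11:83662584-83664683, plus strand), a chemoattractant for monocytes and T cells, had log2 values of 11.86, 11.61, 10.99 and 11.55 after T/S/Z and of 5.89, 5.61, 5.93 and 6.36 after T/S/Z/N. It fell by 5.56 (SE 0.16, limma adjusted p 7.52e-07), and every T/S/Z/N library still lay above the DMSO libraries (4.60, 4.59, 4.65 and 4.65). Its neighbour Ccl3 (chr11:83647844-83649355, minus strand), a chemokine of the same family, stood at 12.24, 12.16, 11.71 and 12.07 after T/S/Z and 6.36, 6.38, 6.84 and 7.26 after T/S/Z/N, and fell by 5.33 (SE 0.19, adjusted p 1.77e-06). The monocyte attractants Ccl2 and Ccl7 fell by 3.34 (SE 0.38) and 3.50 (SE 0.36). Ccl2 was at 5.62, 5.38, 6.08 and 7.15 without and 3.12, 2.96, 2.66 and 2.12 with Nec-1s, and in both states its replicates spread more than those of Ccl4. Ccl9, Ccl12 and Ccl20 fell by 1.44, 1.42 and 1.01. The members that did not pass held Ccl5, at a mean of 9.74 and a change of -0.041 (SE 0.081), and Ccl22, a ligand of CCR4, at 3.96 and 0.22 (SE 0.079).

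Of 11 CXC and other chemokines tested, 4 fell and 0 rose. They were the neutrophil attractants Cxcl1, Cxcl2 and Cxcl3, which act on CXCR2, and the platelet chemokine Ppbp, which fell by 0.64. Cxcl2 was at 9.26, 9.28, 10.22 and 10.83 after T/S/Z and at 5.39, 5.27, 5.32 and 5.30 after T/S/Z/N. The T/S/Z/N libraries lay close together while replicates 3 and 4 of T/S/Z lay above 1 and 2, and the fall was 4.58 (SE 0.25, limma adjusted p 9.36e-06). Cxcl1 was at 4.75, 4.61, 5.60 and 6.49 and 1.22, 1.32, 0.90 and 1.14, with a fall of 4.22 (SE 0.31, adjusted p 3.6e-05). Cxcl3 fell less, by 1.90 (SE 0.057, adjusted p 7.52e-07), from 6.94, 7.07, 6.92 and 6.96 to 5.22, 5.13, 4.89 and 5.05. The interferon-linked Cxcl10 had a change of -0.57 (SE 0.20), just under the fold-change minimum, and Cxcl16, Cxcl9 and Cx3cl1 had changes of 0.093, 0.018 and 0.026. Among chemotactic receptors, 3 of 14 fell and 0 rose (1 after quantile normalization). These were Ccrl2, a non-signalling receptor that presents chemerin, Ccr1, a receptor for CCL3, and C5ar1, the receptor for complement C5a, with falls of 2.66, 1.27 and 1.06.

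Cytokine genes fell in 11 of 16 tested, 0 rose and the median change was -2.04. Tnf itself, the cytokine added to the cultures, had log2 values of 9.68, 9.43, 9.06 and 9.46 after T/S/Z and 4.15, 4.33, 4.81 and 4.61 after T/S/Z/N, with 2.69, 2.80, 3.21 and 2.70 in DMSO. It fell by 4.93 (SE 0.17, limma adjusted p 1.73e-06) and the groups lay far apart. Il1a, an alarmin that acts on the interleukin-1 receptor, was at 5.75, 5.79, 5.69 and 6.41 and 1.71, 1.49, 1.25 and 0.97, a fall of 4.55 (SE 0.20, adjusted p 4.24e-06), and it carries the confounded mark. Il1rn, which encodes the antagonist of that receptor, and Il1b fell by 2.96 (SE 0.31) and 2.19 (SE 0.22). Other cytokine genes that fell include Osm, Lif, Clcf1 and Il6. Osm, encoding oncostatin M, was at 6.59, 6.64, 7.11 and 7.62 without and 2.80, 2.73, 2.44 and 2.28 with Nec-1s, so that the T/S/Z/N libraries lay below every DMSO library (3.47, 3.68, 3.46 and 3.49). Lif, Clcf1 and Il6 fell by 2.61, 2.08 and 2.00, the last from 2.99, 2.95, 1.95 and 2.12 to 0.75, 0.56, 0.34 and 0.33, a low level at which adding 1 before the log understates a change. Tnfsf9, Il27 and Ifnb1 fell by 2.61, 1.57 and 0.92. Tgfb1, Il18, Ebi3, Il12b and Il15 did not pass, with changes between -0.45 and 0.041.

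Growth factors and the plasminogen system fell in 15 of 18 tested, and 0 rose (median -1.33). The falls were 10 with 5 added before the log and 12 with ordinary per-gene variances. Plau, the urokinase that activates plasminogen, had values of 6.90, 6.73, 7.47 and 8.06 after T/S/Z and 3.13, 3.27, 2.78 and 2.70 after T/S/Z/N and fell by 4.32 (SE 0.27, limma adjusted p 1.88e-05). Its receptor gene Plaur fell by 2.51 (SE 0.14). Gdf15, a stress-induced member of the TGF-beta family, fell by 4.08 (SE 0.089, adjusted p 2.36e-07), from 6.64, 6.67, 6.63 and 7.22 to 2.81, 2.59, 2.64 and 2.79. The EGF receptor ligands Hbegf, Areg and Ereg fell by 1.58, 1.53 and 1.83, and the colony-stimulating factors Csf1, Csf2 and Csf3 by 1.29, 1.98 and 1.01. Csf2 was low, at 2.70, 1.88, 1.34 and 1.90 after T/S/Z and -0.23, -0.08, 0.14 and 0.09 after T/S/Z/N, and carries the confounded mark. Pdgfb and Vegfa fell by 1.37 and 0.89. Igf1, Hgf and Pdgfa did not pass and had changes of -0.55, -0.34 and -0.26.

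**Figure D2:**
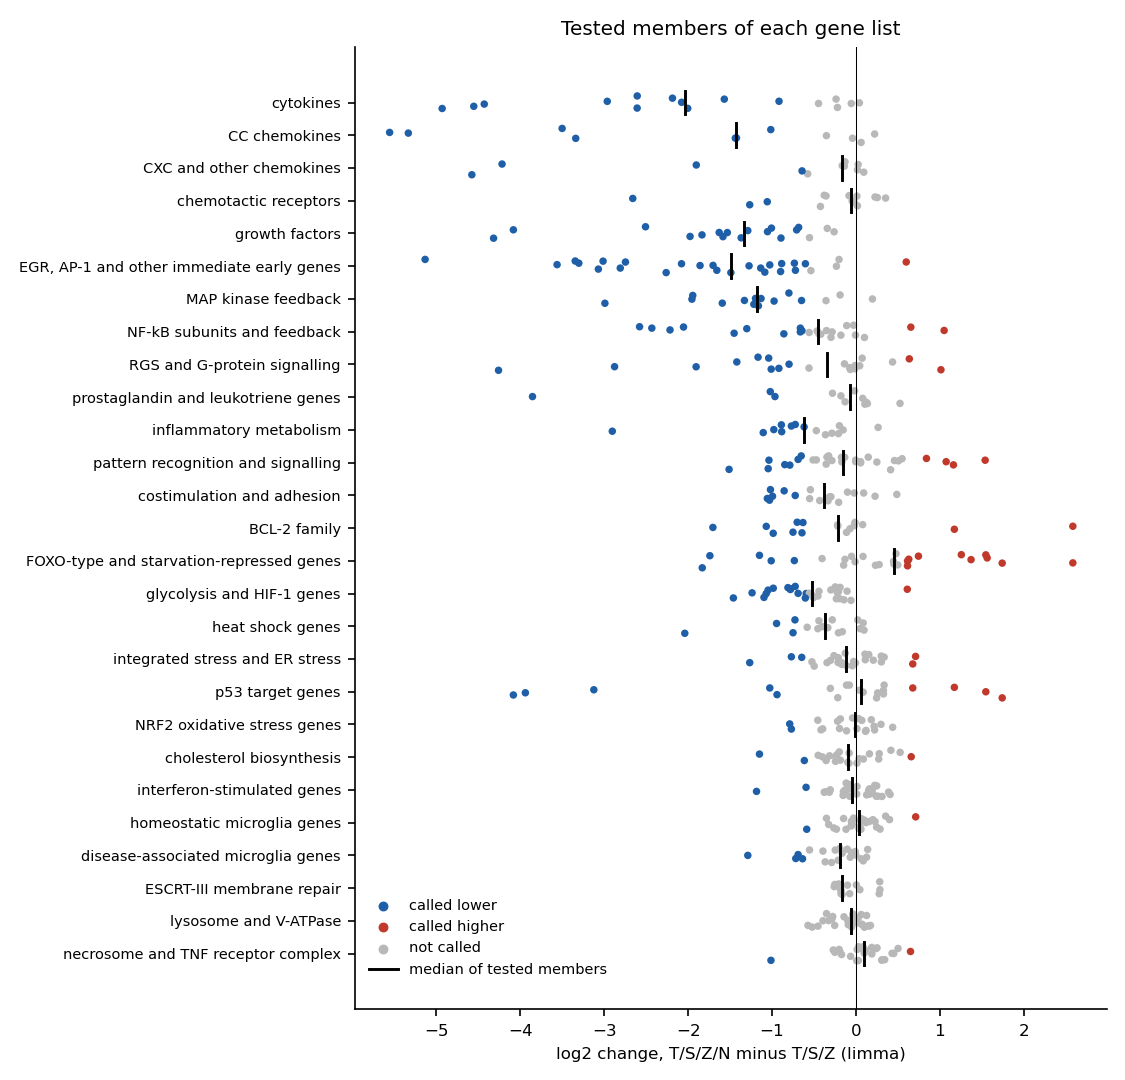
Each point is a tested member of a gene list, placed by its limma log2 change with Nec-1s on the x axis and coloured by its call, and the bar is the median of the list's tested members. Cytokines, growth factors and immediate early genes lie far to the left (medians -2.04, -1.33 and -1.49), FOXO-type genes lie on both sides with a median of 0.448, and ESCRT-III and lysosomal genes have 0 calls.

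Immediate early and related genes fell in 23 of 27 tested. Most of the list are transcription factor genes that MAP kinase and calcium signals can switch on without new protein synthesis. Egr2 was at 6.63, 6.68, 7.48 and 7.60 after T/S/Z, at 1.57, 1.68, 1.73 and 2.86 after T/S/Z/N and at 1.84, 1.64, 1.08 and 0.94 in DMSO. The fall was 5.13 (SE 0.14, limma adjusted p 7.12e-07), and replicate 4 of T/S/Z/N lay above the other 3. Egr1 fell by 3.56 (SE 0.32) and Egr3 by 2.75 (SE 0.15). Atf3, a repressor of the ATF family, was abundant at 10.33, 10.17, 9.62 and 10.02 and fell to 6.47, 6.56, 6.67 and 7.06, below the DMSO libraries (7.62, 7.52, 7.66 and 7.60). The orphan nuclear receptor genes Nr4a1 and Nr4a3 fell by 3.01 and 3.30, and Nr4a2 had a change of -0.20 (SE 0.10). Among AP-1 genes, Fosl1, Fosl2, Jun and Jund fell by 2.26, 1.14, 1.09 and 0.72, and Junb had a change of -0.54, just under the fold-change minimum. Fos was the 1 member called higher, at 5.66, 5.72, 5.72 and 5.98 without and 6.47, 6.51, 6.24 and 6.25 with Nec-1s. Its rise of 0.60 (SE 0.09) was not called after median centring (0.53), with 5 added before the log, without replicate 1 or without replicate 2. Ier3, Maff, Zfp36, Klf2 and Myc fell by 3.07, 2.81, 2.08, 1.86 and 1.66.

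Rcan1 (chr16:92391953-92470867, minus strand), an inhibitor of the calcium-activated phosphatase calcineurin, was in none of the lists and had the smallest adjusted p of the 12 largest falls. It was at 9.59, 9.50, 9.55 and 10.07 after T/S/Z, at 4.76, 4.58, 4.58 and 4.70 after T/S/Z/N and at 4.75, 4.74, 4.62 and 4.67 in DMSO, and fell by 5.02 (SE 0.086, limma adjusted p 9.52e-08). The T/S/Z/N and DMSO libraries overlapped. Rcan1 carries the confounded mark.

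The list of MAP kinase feedback genes holds Dusp, Spry and Spred genes and also Gadd45a, Gadd45b and Gadd45g. Of 16 tested, 13 fell, with 0 rises and a median of -1.18. Dusp1, a nuclear phosphatase of p38 and JNK, was at 8.28, 8.45, 8.46 and 9.24 after T/S/Z and 5.79, 5.63, 5.55 and 5.49 after T/S/Z/N, a fall of 2.99 (SE 0.17, limma adjusted p 1.22e-05). Dusp4, Dusp5 and Dusp16 fell by 1.96, 1.20 and 1.13, and Spry1 and Spry2, which encode antagonists of receptor tyrosine kinase signals, by 1.59 and 1.95. Dusp6, a phosphatase of ERK, had a change of -0.19 (SE 0.094), and Dusp2 of 0.20 (SE 0.081).

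Promoters of 4 of the genes with large falls and of 1 with a rise are printed, since each holds a match to a motif of a factor class that controls such genes. They were chosen after the matches had been seen. Each run holds the 200 bases before the RefSeq transcription start in GRCm38.p6, from 5′ to 3′ on the strand of the gene, with the match in capitals.
Egr2, chr10:67537669-67537868, plus strand, CArG box bound by serum response factor, 72 bases before the start: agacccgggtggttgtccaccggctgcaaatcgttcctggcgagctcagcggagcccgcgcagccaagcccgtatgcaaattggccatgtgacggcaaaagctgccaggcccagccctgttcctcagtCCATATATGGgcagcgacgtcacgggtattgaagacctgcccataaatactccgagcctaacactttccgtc
Cxcl1, chr5:90891045-90891244, plus strand, overlapping kB matches on both strands bound by NF-kB, from 71 bases before the start: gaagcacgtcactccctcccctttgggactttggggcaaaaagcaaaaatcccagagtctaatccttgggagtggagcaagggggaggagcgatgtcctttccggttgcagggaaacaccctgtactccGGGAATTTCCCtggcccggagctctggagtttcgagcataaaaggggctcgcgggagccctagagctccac
Cxcl2, chr5:90903699-90903898, plus strand, overlapping kB matches on both strands, from 97 bases before the start: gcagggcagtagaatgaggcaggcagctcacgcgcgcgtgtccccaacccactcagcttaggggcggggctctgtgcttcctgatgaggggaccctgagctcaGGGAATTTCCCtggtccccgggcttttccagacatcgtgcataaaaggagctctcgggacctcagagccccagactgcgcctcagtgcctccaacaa
Il1a, chr2:129309973-129310172, minus strand, AP-1 motif, 12 bases before the start: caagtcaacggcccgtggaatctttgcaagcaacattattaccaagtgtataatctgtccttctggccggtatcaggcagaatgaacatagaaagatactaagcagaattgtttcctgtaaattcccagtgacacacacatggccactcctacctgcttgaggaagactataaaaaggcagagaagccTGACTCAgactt
Txnip, chr3:96557757-96557956, plus strand, forkhead motif read on the other strand, 121 bases before the start: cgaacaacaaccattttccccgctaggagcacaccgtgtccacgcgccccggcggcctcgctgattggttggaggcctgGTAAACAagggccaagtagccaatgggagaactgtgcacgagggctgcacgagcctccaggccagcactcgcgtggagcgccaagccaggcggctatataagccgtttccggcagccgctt
The motifs searched on both strands of the 250 bases before the start were the kB and CArG consensus motifs, TGANTCA (AP-1), TGACGTCA (CRE) and TGTTTAC (forkhead). RefSeq gave an entry for 8183 of 10520 tested gene symbols. Of these promoters, 4.67% held the kB motif, 1.06% the CArG box, 3.98% the AP-1 motif, 2.92% the CRE and 2.1% the forkhead motif. Since only 77.8% of the symbols had an entry, the called genes were not compared with all genes here, and the printed promoters say nothing about called genes as a set. Among the other genes with the largest changes, Tlr9 held an AP-1 match and Il21r a forkhead match, neither printed. Ccl3, Tnf, Rcan1 and Gdf15, which fell, and Bmf, Sesn1, Arrdc3, Tsku and Ulk1, which rose, had an entry and no match to any of these motifs in the window, which says only that these letters are not in it. Ccl4, Osm, Plau, Rgs1, Trp53inp1, March1, Gm9762 and Gm6741 had no entry.

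NF-kB subunits and feedback genes split. Of 24 tested, 10 fell, 2 rose and 12 did not pass. The largest falls were in Nfkbid and Nfkbiz, which encode nuclear IkB proteins, in Zc3h12a, which encodes the RNase Regnase-1, and in Tnfaip3, which encodes the ubiquitin-editing enzyme A20. Nfkbid was at 4.30, 3.92, 4.65 and 4.85 and 1.59, 1.75, 2.09 and 1.98, and fell by 2.58 (SE 0.11, limma adjusted p 3.38e-06), to within the DMSO values (2.08, 2.20, 1.84 and 1.52). Tnfaip3 was at 7.42, 7.40, 7.42 and 7.49 and 5.27, 5.29, 5.45 and 5.50, a fall of 2.06 (SE 0.047, adjusted p 2.4e-07) that left every library above DMSO (2.79, 2.91, 2.99 and 2.85). Nfkbia, the IkB-alpha gene, fell by 0.64 only, and the subunit genes Rela, Relb, Nfkb1 and Nfkb2 did not pass, with changes of -0.28, 0.10, -0.46 and -0.11. Traf1 and Nfkbie, both raised by T/S/Z, had changes of -0.35 and -0.028. N4bp1, an RNase and NF-kB regulator that caspase-8 cleaves, rose by 1.05 (SE 0.044) and Bcl3 by 0.65 (SE 0.045), a rise that was not called after median centring. Bhlhe40, a transcription factor gene, and Mir155hg, the host transcript of a microRNA, are named by the study for these cells, and fell by 1.45 (SE 0.043) and 1.30 (SE 0.14). A list of 8 of the genes the study names (Ccl2, Ccl3, Ccl4, Cxcl1, Cxcl2, Il6, Bhlhe40 and Mir155hg) was called lower throughout, and since the study chose them on these samples, that is not independent evidence of their direction.

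Enzymes of inflammation were mixed. Ptgs2, the inducible cyclooxygenase, was at 5.78, 5.71, 7.21 and 7.99 after T/S/Z, with replicates 3 and 4 above 1 and 2, and at 2.75, 2.65, 2.81 and 3.07 after T/S/Z/N. It fell by 3.85 (SE 0.30, limma adjusted p 4.87e-05), while Ptges, the prostaglandin E synthase, fell by 1.02 (SE 0.051) and stayed at a mean of 8.25. Another 9 of the 12 tested prostaglandin and leukotriene genes did not pass, and 1 of the list was called higher without replicate 2. Of 15 genes of inflammatory metabolism, 8 fell and 0 rose. Ch25h, which makes 25-hydroxycholesterol, fell by 2.90 (SE 0.11), from 8.10, 8.00, 8.35 and 8.36 to 4.91, 4.81, 5.71 and 5.77. Acod1, which makes itaconate, fell by 0.89 (SE 0.071), from 9.46, 9.70, 9.54 and 9.59 to 8.72, 8.62, 8.62 and 8.78, and Sod2, Nos2 and Cybb had changes of -0.29, -0.21 and -0.15.

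Of 20 RGS and G-protein genes, 9 fell and 2 rose. Rgs1, an inhibitor of chemokine receptor signals, was at 7.02, 6.87, 7.36 and 7.97 without and 3.29, 3.35, 3.00 and 2.54 with Nec-1s and fell by 4.26 (SE 0.27, limma adjusted p 1.91e-05), to below the DMSO libraries (4.47, 4.81, 4.39 and 4.22). Gem, a small GTPase gene, Rgs16 and Gpr84 fell by 2.88, 1.91 and 1.42, and Ptger2, a receptor for prostaglandin E2, rose by 1.01 (SE 0.082). The 2 rises were 1 without replicate 1 or after median centring, and 0 with 5 added before the log. Genes of glycolysis and HIF-1 fell in 13 of 29 tested with 1 rise. With 5 added before the log 7 fell, and the rise was not called then, after median centring or after quantile normalization. Slc2a1, the glucose transporter GLUT1, fell by 1.46 (SE 0.06), from 7.51, 7.56, 7.65 and 7.84 to 6.20, 6.17, 6.16 and 6.20, and Ndrg1, Slc16a3 and Hk2 fell by 1.24, 1.07 and 0.81. Of 16 heat shock genes, 4 fell (2 with 5 added before the log or with ordinary per-gene variances), with the largest fall in Hspa1a (2.04, SE 0.17), which has the near-identical copy Hspa1b (0.95), so that both are uncertain.

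The genes that rose belonged in part to a list of FOXO-type and starvation-repressed genes. It mixes genes that FOXO factors are known to switch on when growth signals are low with others, such as the Foxo genes. Of its 27 tested members, 10 rose and 5 fell, and with 5 added before the log 6 rose. Bmf (chr2:118528757-118549687, minus strand), a BH3-only activator of apoptosis, had values of 0.97, 1.26, 0.80 and 0.60 after T/S/Z, 3.47, 3.44, 3.54 and 3.50 after T/S/Z/N and 4.67, 4.45, 4.56 and 4.51 in DMSO. It rose by 2.58 (SE 0.11, limma adjusted p 4.48e-06) and stayed below DMSO in every library. Sesn1, a leucine sensor that restrains mTORC1, was at 2.61, 2.49, 2.12 and 1.90 and 3.93, 4.00, 3.95 and 4.21, a rise of 1.74 (SE 0.14, adjusted p 6.09e-05). Txnip, an inhibitor of thioredoxin and glucose uptake, rose by 1.37 (SE 0.062, adjusted p 4.63e-06), from 4.93, 5.05, 5.10 and 5.10 to 6.49, 6.48, 6.40 and 6.31. Arrdc3, Trp53inp1 and Klhl24 rose by 1.56, 1.55 and 1.26. Ulk1, a kinase gene of autophagy that was in none of the lists, rose by 1.34 (SE 0.072). The 5 members that fell were Cited2, Irs2, Per1, Rgs2 and Arrdc4, with falls of 1.83, 1.74, 1.15, 1.01 and 0.73. Foxo1, Foxo3 and Foxo4 did not pass, with changes of 0.48, 0.28 and 0.45.

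In the BCL-2 family, 7 of 16 tested genes fell and 2 rose. All 7 were anti-apoptotic by their known roles, namely Bcl2l1 (fell by 1.71, SE 0.10), Mcl1 (1.07, SE 0.058), Bcl2 (0.75), Bcl2l2 (0.64) and the near-identical Bcl2a1a, Bcl2a1b and Bcl2a1d (0.70, 0.63 and 0.99), which are uncertain as single genes. Bcl2l1 was at 5.69, 5.66, 5.57 and 6.01 after T/S/Z and 3.98, 4.17, 4.08 and 3.88 after T/S/Z/N, with no overlap. Mcl1 was at 8.77, 8.75, 8.69 and 8.64 and 7.64, 7.58, 7.64 and 7.72. Both risers were pro-apoptotic BH3-only genes, Bmf (above) and Bbc3, which encodes PUMA and rose by 1.17 (SE 0.076, limma adjusted p 2.15e-05). Bax, Bak1, Bid, Bad and Bcl2l11 did not pass, with changes between -0.22 and 0.08. Genes known as p53 targets went both ways, with 5 of 20 lower and 4 higher. Gdf15, Plk2 and Plk3 were the largest falls (Plk2 fell by 3.94, SE 0.091, from 8.65, 8.79, 8.79 and 8.91 to 4.62, 4.64, 4.76 and 5.35). Mdm2, the ubiquitin ligase of p53, fell by 0.94, and Cdkn1a had a change of -0.31 that did not pass.

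Receptors of pattern recognition rose and fell. Of 30 genes, 4 rose, Tlr9, Tlr4, Tlr8 and Nod1, and 7 fell. Tlr9, a receptor for unmethylated CpG DNA, was at 2.14, 2.16, 2.15 and 2.19 after T/S/Z and at 3.69, 3.77, 3.69 and 3.65 after T/S/Z/N, and rose by 1.54 (SE 0.054, limma adjusted p 1.77e-06). The T/S/Z libraries were nearly equal, and DMSO lay higher than both groups, at 4.63, 4.46, 4.46 and 4.59. Tlr4, the receptor for lipopolysaccharide, rose by 1.16 (SE 0.061), from 2.83, 3.05, 2.70 and 2.66 to 4.16, 4.10, 3.81 and 3.81, and Tlr8 by 1.07 (SE 0.05). Nlrp3, the inflammasome sensor, fell by 1.51 (SE 0.049), and Clec5a, Clec4e and Ticam1 by 1.05, 0.85 and 1.04. Tlr2, Myd88 and Cd14 did not pass, with changes of -0.33, -0.0032 and -0.51. Of 18 costimulation and adhesion genes, 6 fell and 0 rose, among them Cd83 (1.02) and Vcam1 (1.03), while Cd40 and Icam1, raised by T/S/Z, had changes of -0.43 and -0.32. In this list 1 gene was called higher without replicate 4, and the falls were 8 after median centring and 5 after quantile normalization.

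Other rises were in Il21r, a cytokine receptor subunit (1.48, SE 0.061, limma adjusted p 3.38e-06), in March1, a ubiquitin ligase of MHC class II (1.44, SE 0.09), and in Tsku, a secreted proteoglycan (1.67, SE 0.17). Il21r was at 2.89, 2.89, 2.92 and 2.95 after T/S/Z, 4.35, 4.39, 4.24 and 4.60 after T/S/Z/N and 3.82, 3.87, 3.74 and 3.47 in DMSO, so that 4 of 4 libraries with Nec-1s lay above every library without stimulus. Tsku was at 2.48, 2.40, 1.97 and 1.85 and 3.74, 3.67, 3.81 and 4.16. The processed pseudogene Gm9762 and the predicted gene Gm6741 were also among the 12 largest rises. Gm9762 was at 1.11, 0.23, 1.12 and 0.00 and 2.58, 2.56, 1.64 and 2.79, a wide spread within each group, and a pseudogene can share reads with its parent gene, so that its rise of 1.77 (SE 0.32) is uncertain. Gm6741 rose by 1.35 (SE 0.27).

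**Figure D3:**
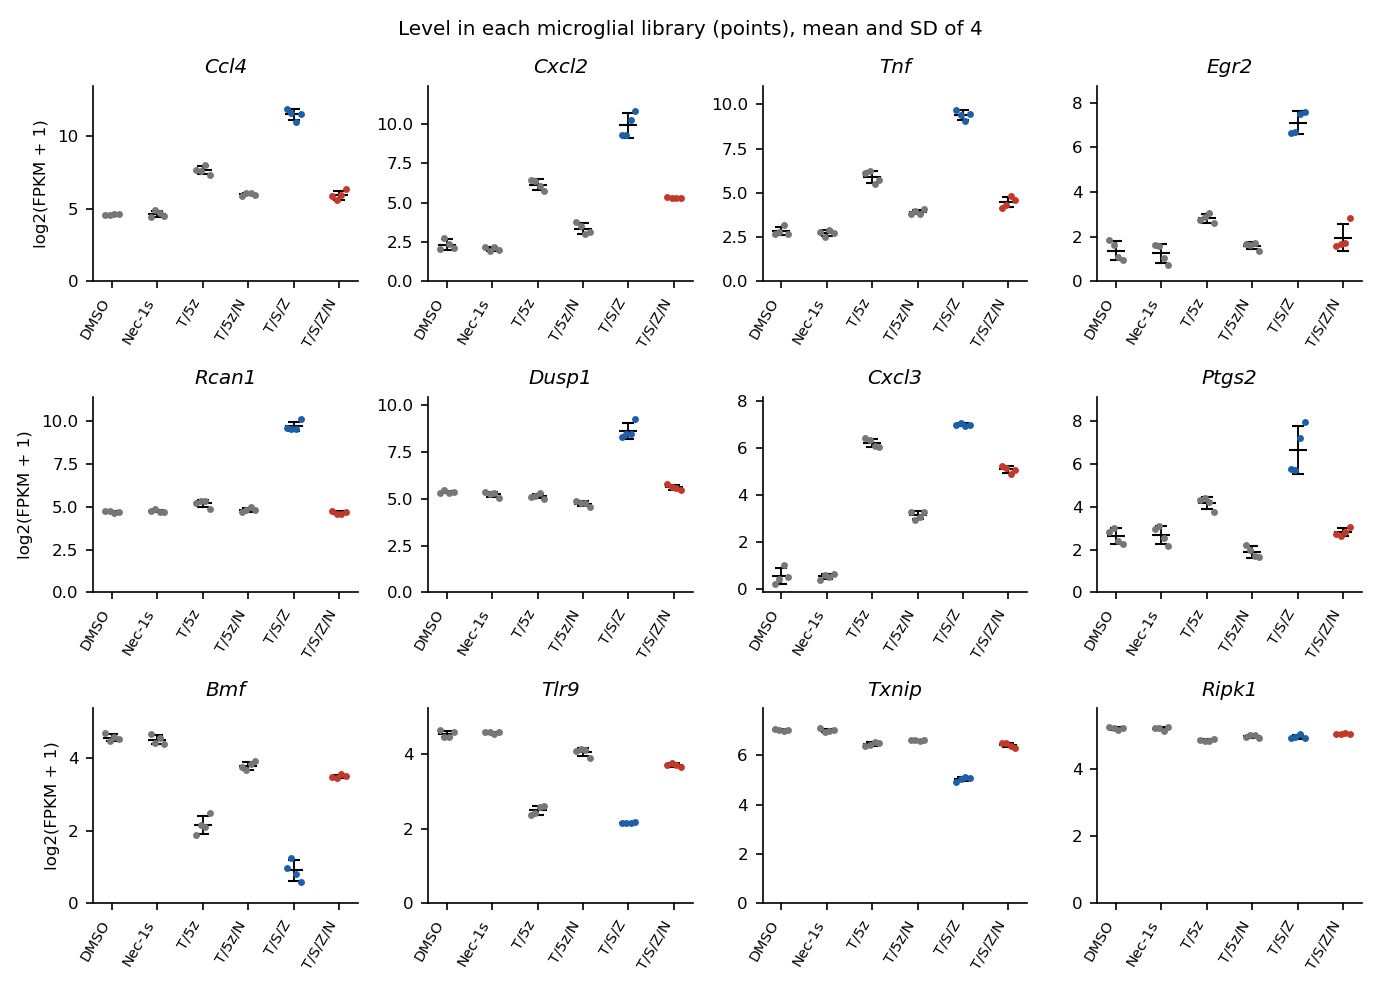
Each panel shows the log2(FPKM + 1) of 1 gene in the 24 microglial libraries by treatment, with the mean and SD of 4 as bars, T/S/Z in blue and T/S/Z/N in red. Ccl4, Cxcl2, Tnf, Egr2, Rcan1, Dusp1, Cxcl3 and Ptgs2 fall with Nec-1s, Bmf, Tlr9 and Txnip rise without reaching the DMSO points, and the Ripk1 means differ by 0.083.

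Of 26 genes of the TNF receptor complex and the necrosome, 1 rose, 1 fell and 24 did not pass, with a median of 0.091. Each count is 3.85% of the list, near the shares over all tested genes (5.35% higher and 6.72% lower), and so is no result about these genes. Ripk1, the target of Nec-1s, was at 4.90, 4.92, 5.02 and 4.91 after T/S/Z and 5.01, 5.02, 5.04 and 5.01 after T/S/Z/N, a change of 0.083 (SE 0.042, limma adjusted p 0.122). Nec-1s acts on the kinase and not on its transcript, so this level is no check of the treatment. Ripk3 was at 1.75, 1.85, 1.79 and 2.01 and 2.35, 2.35, 2.22 and 2.19, a change of 0.43 (SE 0.083) that was under the fold-change minimum, and Mlkl had 0.19 (SE 0.079, adjusted p 0.0726). Casp8, Fadd, Tradd and Tnfrsf1a had changes of 0.25, 0.11, 0.34 and 0.009. Cflar, the caspase-8 regulator cFLIP, fell by 1.01 (SE 0.054, adjusted p 8.9e-06), from 6.71, 6.80, 6.84 and 6.80 to 5.62, 5.66, 5.93 and 5.90. Birc2, the gene of cIAP1, a target of Smac mimetics, rose by 0.65 (SE 0.066, adjusted p 0.000157), from 3.35, 3.64, 3.48 and 3.40 to 4.09, 4.06, 4.14 and 4.17, and was not called after median centring or with 5 added before the log. Birc3, the gene of cIAP2, had a change of 0.31 (SE 0.046).

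Other lists are read against the 6.72% lower and 5.35% higher over all tested genes. Interferon-stimulated genes had 2 falls (5.88%, near that share) and 0 rises among 34 tested and a median of -0.053. The falls were in Ifi205, one of a family of near-identical genes, and in Rsad2 (0.59), and 1 was left without replicate 1, without replicate 2, after quantile normalization or with 5 added before the log. Homeostatic microglia genes had 1 rise, Tmem119 (0.71, SE 0.048, from 3.31, 3.31, 3.21 and 3.24 to 4.03, 4.03, 3.98 and 3.89), and 1 fall, Gpr34 (0.59), among 29. The fall of Gpr34 was not called without replicate 3 or without replicate 4, and neither gene was called with 5 added before the log. After quantile normalization 3 genes of this list were called higher. P2ry12, Csf1r, Trem2 and Cx3cr1 had changes of -0.045, 0.29, 0.036 and 0.35. Genes of disease-associated microglia fell in 4 of 21 (19%), namely Csf1, Cd9, Clec7a and Spp1, but in 1 after quantile normalization, Csf1, with Apoe, Lpl and Gpnmb at -0.29, -0.10 and 0.14. For ER stress and the integrated stress response, 3 of 26 fell (11.5%), with Ppp1r15a lowest at -1.27, and 2 rose (7.69%), Sesn2 and Trib3, of which 1 was called without replicate 4 and 0 with 5 added before the log. Of 20 NRF2 genes 2 fell (10%), Hmox1 (0.79) and Slc7a11 (0.77), and 0 rose, against 1 fall and 1 rise after quantile normalization. Of 23 cholesterol synthesis genes 2 fell, Insig1 (1.15) and Sc5d, and 1 rose, Mvk. The falls were 1 without replicate 1, and there were 2 rises without replicate 2, while 1 fall and 0 rises were left with 5 added before the log or after quantile normalization. LXR targets and cholesterol efflux genes had 1 rise and 1 fall among 13. Neither was called with 5 added before the log, and there were 0 rises without replicate 1 or after median centring and 2 without replicate 2 or after quantile normalization. Ribosome biogenesis genes had 1 rise and 3 falls among 31. That rise was not called with 5 added before the log, after median centring, when there were 5 falls, or after quantile normalization. Cell cycle genes had 0 rises and 2 falls among 20, which became 1 rise and 0 falls without replicate 1, 4 falls without replicate 2, 1 fall with ordinary per-gene variances and 0 falls with 5 added before the log. Genes of ESCRT-III membrane repair (15 tested) and of the lysosome and V-ATPase (28 tested) had 0 calls by limma, with changes from -0.259 to 0.286 and from -0.572 to 0.173. After median centring 2 lysosomal genes were called lower, and 1 without replicate 1 or without replicate 2.

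Each level was also set against DMSO, to see where it lay relative to unstimulated cells. T/S/Z changed 29.6% of the tested genes against DMSO, with 41.1% of these calls higher (52.7% after median centring and 54.1% with 5 added before the log), and T/S/Z/N had 6.2% higher and 7.87% lower (44.1% of calls higher, and 53.1% with 5 added before the log). These comparisons share libraries with the Nec-1s comparison, so only their own values are given side by side. Of the 27 immediate early genes, 18 were higher and 2 lower after T/S/Z, and 5 were higher and 8 lower after T/S/Z/N. Those called lower after T/S/Z/N were Nr4a1, Fosl2, Klf2, Egr1, Nr4a2, Atf3, Btg2 and Klf10. Nr4a1 was 0.64 from DMSO after T/S/Z and -2.38 after T/S/Z/N (SE 0.17), and Egr1 was 2.61 and -0.95 (SE 0.15). Osm was 3.47 and -0.96, and Rgs1 2.84 and -1.42. Other genes stayed raised. Ptges was 6.39 and 5.37, Acod1 5.78 and 4.89, Clec4e 5.55 and 4.71, and Traf1 5.10 and 4.75. Of the 24 NF-kB genes, 23 were higher after T/S/Z and 17 after T/S/Z/N. Of the 29 homeostatic microglia genes, 12 were lower after T/S/Z and 10 after T/S/Z/N, with Mertk at -2.32 and -2.26 and Tmem37 at -2.37 and -2.42. In the glycolysis and HIF-1 list, 14 of 29 were higher after T/S/Z and 5 after T/S/Z/N.

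**Figure D4:**
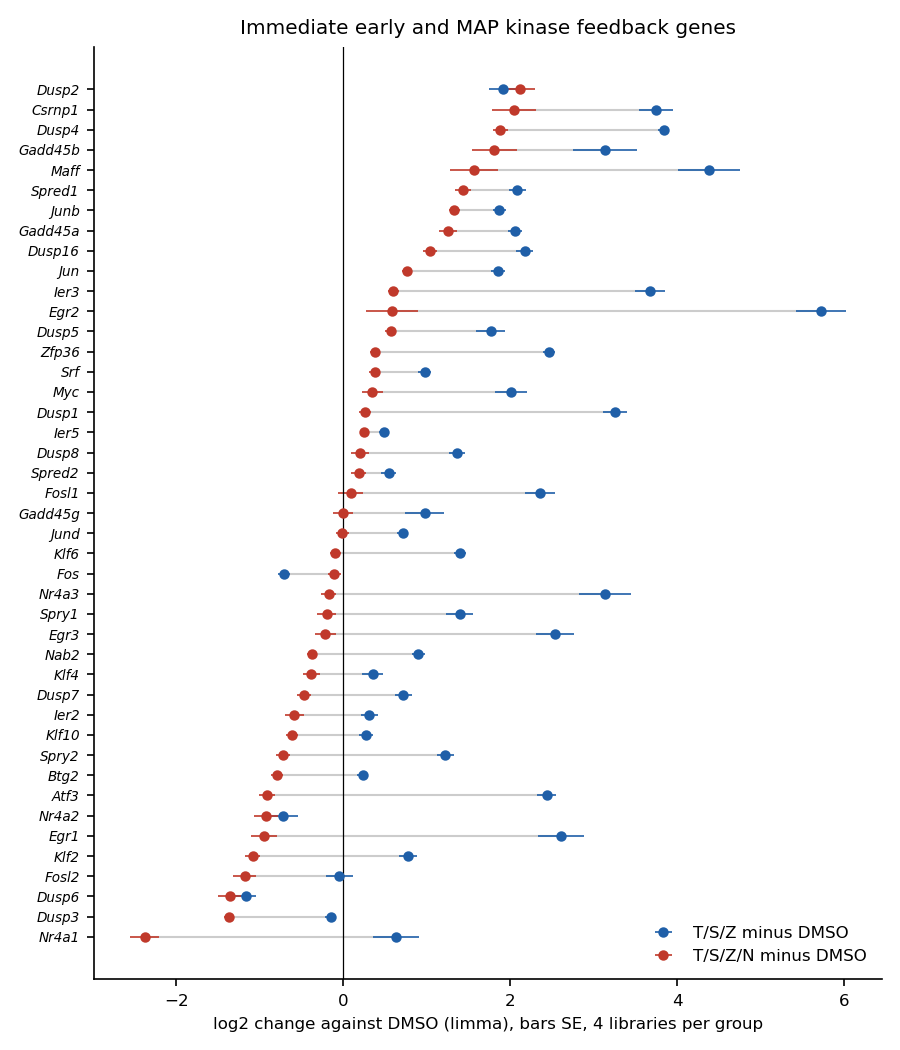
Each row is an immediate early or MAP kinase feedback gene, with its limma log2 change against DMSO after T/S/Z in blue and after T/S/Z/N in red and bars for the SE. Egr2 moves from 5.72 to 0.59 and Dusp1 from 3.25 to 0.26, Nr4a1 and Egr1 end left of 0, and Dusp2 keeps a value of 2.11.

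The effect of Nec-1s after T/S/Z was compared with its effect after T/5z, in which TAK1 inhibition takes the place of the Smac mimetic and zVAD. Nec-1s changed 7.16% of tested genes after T/5z. The effects differed for 681 genes (6.47%), of which 397 had the lower value after T/S/Z and 284 the higher. Immediate early genes made up 15 of those with the lower value and 1 with the higher, of 27 tested, and MAP kinase feedback genes 9 and 2 of 16. Rcan1 changed by -5.02 after T/S/Z and by -0.36 (SE 0.076) after T/5z, an interaction of -4.67 (SE 0.18, limma adjusted p 4.63e-09). Osm changed by -4.43 and -0.37, Gdf15 by -4.08 and -0.44, and Atf3 by -3.35 and 0.37, with interactions of -4.06, -3.64 and -3.71. Ccl4 and Egr2 fell after both stimuli, by 5.56 and 5.13 after T/S/Z and by 1.64 and 1.23 after T/5z. Cxcl3 had the larger fall after T/5z, 3.07, and its interaction was 1.16 (SE 0.11). For Cxcl1, Il6, Ch25h and Bhlhe40 the interaction did not pass, at -1.34 (SE 0.57), 0.33 (SE 0.33), -0.28 (SE 0.30) and -0.40 (SE 0.17), which shows neither a difference nor equal effects.

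The 6 largest positive interactions were in genes that Nec-1s lowered after T/5z. Ccl22 changed by 0.22 after T/S/Z and -1.49 after T/5z, with an interaction of 1.71 (SE 0.11, limma adjusted p 3.33e-07). P2ry13, an ADP receptor of resting microglia, changed by 0.16 and -1.50, and Dusp2 by 0.20 and -1.45. Tmem119, the transcription factor gene Ikzf1 and Sac3d1 were called higher after T/S/Z (0.71, 0.61 and 0.81) and lower after T/5z (-0.89, -0.99 and -0.74). Birc2 did the same, with 0.65 and -0.63 and an interaction of 1.28 (SE 0.11). Txnip rose after T/S/Z and had 0.15 (SE 0.045) after T/5z, while Tlr9 rose alike, by 1.54 and 1.56, with an interaction of -0.017 (SE 0.093). Bmf rose after both, by 2.58 and 1.63, and its interaction was 0.96 (SE 0.19).

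**Figure D5:**
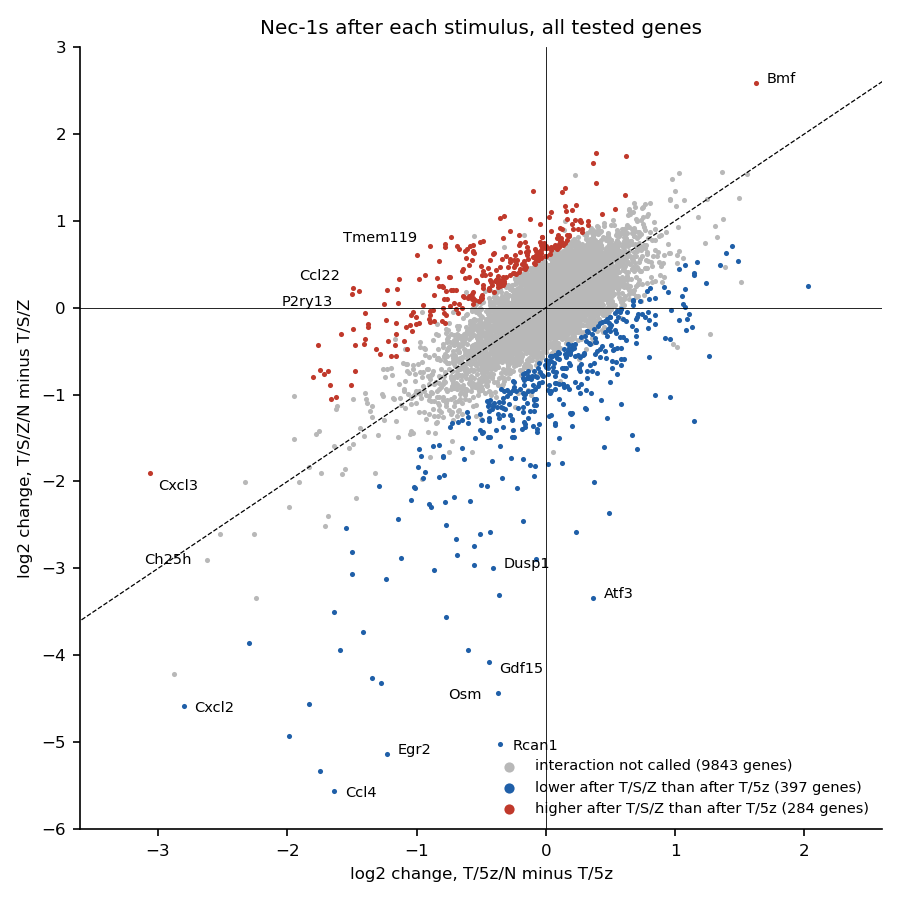
Each point is 1 of 10524 tested genes, with the log2 change when Nec-1s was added to T/5z on the x axis and when it was added to T/S/Z on the y axis, coloured by the interaction call, and the dashed line marks equal changes. Rcan1, Osm, Atf3 and Gdf15 lie near 0 on the x axis and between -5.02 and -3.35 on the y axis, and Ch25h lies near the line.

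Nec-1s in unstimulated microglia called 0 of 10524 genes by limma, with 892 at an unadjusted p under 0.05, 15 of them past the fold-change minimum. The effect of Nec-1s after T/S/Z differed from its effect in unstimulated cells for 12.1% of tested genes, 568 with the higher value after T/S/Z and 701 with the lower (44.8% higher, against 27.9% after median centring and 21.9% with 5 added before the log). Ccl4 changed by 0.017 (SE 0.074) with Nec-1s alone, Egr2 by -0.12 (SE 0.068), Rcan1 by 0.053 (SE 0.036) and Bmf by -0.06 (SE 0.037). In astrocytes, whose table was normalized separately, Nec-1s added to T/S/Z called 429 of 13842 genes (3.1%), 209 higher and 220 lower. The count was 274 without replicate 2, 761 without replicate 3 and 3 with ordinary per-gene variances. The groups of genes can be set beside those of microglia without a test. Growth factors fell in 8 of the microglial list's members, cytokines in 7, CC chemokines in 5 with 1 rise, and immediate early genes went both ways with 4 falls and 4 rises. Interferon-stimulated genes fell in 12 in astrocytes and in 2 in microglia. Not every listed gene was tested in astrocytes (Ccl6 and Ccl22 were not), so the astrocyte counts give no share of a list. Cxcl2 changed by -2.48 (SE 0.081) and Rcan1 by -0.95 (SE 0.085) in astrocytes.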

How the data were processed

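RNA was sequenced from mouse microglia and astrocytes in an mRNA-enriched library, which for microglia was not strand-specific. The deposited values are log2(FPKM + 1) per gene, made by the authors in OmicSoft Array Studio and scaled to a common 75th percentile. In the microglial table each gene's mean over the 6 treatments is the same in replicates 1 to 3 as in replicate 4, a step the sources used here do not describe. It left values below 0 in replicates 1 to 3 and leaves their depth unknown, while the depth of replicate 4 was estimated from the spacing of low values, in reads or fragments. The aligner settings and annotation release are not given in the sources used here, and the gene coordinates in the deposited annotation are those of GRCm38. Deposited exon lengths were not used in a test.

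Groups were taken from the labels. Changes were fitted in limma 3.58.1 (R 4.3.3) with moderated variances that follow the mean, a term for the replicate number and only the libraries compared, with 2-sided tests. Genes needed a log2 value of at least 1 in at least 4 microglial or 3 astrocyte libraries, and calls a fold change over 1.5 and a Benjamini-Hochberg adjusted p under 0.05. Because 1 was added before the log, changes of low genes are understated. The fit was tested on simulated data. Genes were named by a rule, namely the 12 largest rises and falls, the leading called and the most abundant uncalled members of each list, all genes of the necrosome list and of the study's own list, the 6 largest interactions each way and leading cell type markers. Other list members are named to account for a list and were chosen after their values were seen. The comparison and the gene lists were chosen with earlier results of these data known. Alternatives were another pseudocount, filter, scaling, variance model and fold-change minimum, no replicate term, leaving out each replicate, and, chosen after seeing the data, values below 0 set to 0.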

Additional observations from a re-analysis of the deposited data

Results flagged for a closer look

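Of 108 groups of 4 libraries examined for 54 genes, 5 held a library far from the other 3 by Dixon's criterion, which chance alone would flag in about 1 group in 20. Replicate 4 of T/S/Z was high for Il1a (6.41, group median 5.77), Gdf15 (7.22, median 6.66) and Rcan1 (10.1, median 9.57). Replicate 4 of T/S/Z/N was high for Egr2 (2.86, median 1.7), and replicate 2 of T/S/Z/N for Gm6741 (2.91, median 2.28).

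The effect of Nec-1s after T/S/Z differed from that after T/5z by an interaction test in limma for 12 genes at the ends of the range. It was lower after T/S/Z for Rcan1 (-4.665), Osm (-4.058), Ccl4 (-3.921), Egr2 (-3.908), Atf3 (-3.711) and Gdf15 (-3.642). It was higher for Ccl22 (1.714), P2ry13 (1.657), Dusp2 (1.645), Tmem119 (1.605), Ikzf1 (1.605) and Sac3d1 (1.548), all as differences of log2 changes.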

How the results depend on the processing

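Named genes called for Nec-1s added to T/S/Z kept the sign of their log2 change under every alternative run, while some uncalled ones near 0, and the balance of higher and lower calls, did not. With 5 added before the log, called genes numbered 514 for Nec-1s added to T/S/Z, 396 for the difference from T/5z, 521 for the difference from Nec-1s alone, 1633 for T/S/Z and 861 for T/S/Z/N against DMSO, 314 for Nec-1s added to T/5z and 180 in astrocytes. In the same order they numbered 628, 426, 625, 1705, 915, 385 and 225 when genes needed a mean log2 value of 3, which leaves fewer to test, 335, 227, 331, 1202, 596, 182 and 107 with a fold change over 2, and 6087, 2721, 4461, 7506, 4837, 5088 and 1083 with no fold-change minimum. With ordinary per-gene variances astrocytes had 3 calls. Leaving out 1 replicate in turn gave 1216 to 1375 calls for Nec-1s added to T/S/Z, 0 to 1 for Nec-1s alone and 274 to 761 in astrocytes. Of 221 named genes, 187 kept their side of the threshold with 5 added before the log, 209 after median centring, 210 after quantile normalization and 210 to 219 without 1 replicate. Requiring a mean log2 value of 3 also lowered the counts of falls in gene lists with members of low level, from 7 to 4 for CC chemokines, 4 to 2 for CXC and other chemokines, 11 to 4 for cytokines, 15 to 5 for growth factors, 23 to 15 for immediate early genes, 13 to 7 for MAP kinase feedback and for glycolysis and HIF-1, 9 to 3 for RGS and G-protein genes, 8 to 5 for the genes the study names, 5 to 3 for FOXO-type genes, 4 to 1 for heat shock genes, 3 to 1 for ribosome biogenesis, and 0 for homeostatic microglia, LXR target and cell cycle genes and for astrocyte, oligodendrocyte lineage and fibroblast markers. The rises were then 1 for RGS genes and 0 for ribosome biogenesis.

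Without the replicate block, 1267 genes were called for Nec-1s added to T/S/Z, 706 of the lower and 561 of the higher calls were shared, and all 221 named genes kept their side. Whether the numbers pair the samples could not be checked in the values, since each gene's mean over the 6 treatments is equal in all replicates as deposited, which removes what same-numbered libraries share. For the same reason leaving out the block could change little, so that alternative is no test of it. Depth is unknown for replicates 1 to 3, which limits what can be said of low genes.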
